A study of Homo sapiens with 12 samples.

Results

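The heat shock proteins and J-domain proteins are the ATP-driven chaperones of the cell and their helpers. In the 12 RNA-seq libraries analysed here they were read as the rows whose gene symbol is HSP90AA1, HSP90AB1, HSP90B1, HSPD1, HSPE1, HSPH1, or an HSPA, HSPB, DNAJA, DNAJB or DNAJC symbol with a number, which picked 72 of the 60591 genes of the count table by name alone. By their known location 45 of the 72 members were cytosolic or nuclear, 8 mitochondrial and 13 in the endoplasmic reticulum (ER), and 6 were left unassigned. After low counts were filtered, 66 members could be tested, and these held 40 of the cytosolic, all 8 mitochondrial, all 13 ER and 5 of the unassigned members. The 6 members that did not pass the filter, DNAJB7, DNAJB8, DNAJB13, HSPB2, HSPB9 and HSPA7, reached at most 0.579 CPM (counts scaled to a common library total and corrected by TMM factors) in any library, and DNAJB8 and HSPB2 had no read in any of them.

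PC9 and H1650, both non-small cell lung cancer lines with a mutant epidermal growth factor receptor (EGFR), were seeded, left to attach overnight, and then given 0.1% DMSO, 10 µM erlotinib or 0.1 µM osimertinib. Erlotinib is a reversible and osimertinib a covalent inhibitor of the EGFR kinase. The DMSO cells were taken at 0 h (T0) and the drug-treated cells at 36 h, giving 6 groups of 2 libraries, so each comparison with T0 also spans 36 h of culture, and drug and time cannot be told apart because no DMSO library of 36 h was analysed here. The cells were wild type apart from what each line carries. The lines were compared because EGFR inhibitors kill one more readily than the other. The study calls its 2 RNA-seq replicates biological, and nothing in the labels says whether the 2 libraries of a group came from separate cultures. The p-values therefore measure the spread between these libraries only. In bulk RNA, fewer cells of one kind and less RNA per cell cannot be told apart.

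The libraries held 17961765 to 26346187 gene counts, so that 3 reads, the most that a count of 0 allows, amounted to 0.116 to 0.168 CPM, counting error only. EPCAM, CDH1, KRT8, KRT18 and KRT19, markers of epithelium, were present in all 6 groups. The lung factor NKX2-1 was absent or nearly so, as were the leukocyte marker PTPRC and the fibroblast markers COL1A2 and DCN, while COL1A1 was present at 10.6 to 40.7 CPM as group means. The endothelial marker PECAM1 had a low mean of 1.6 CPM in PC9 T0, from 32 reads in each library, and group means of 0.1 to 0.46 CPM elsewhere. There were 0 pairs of libraries with identical counts.

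Chaperones of the HSP70 class bind short hydrophobic stretches of unfolded proteins in a cycle of ATP hydrolysis that J-domain proteins start and nucleotide exchange factors such as the HSP110 proteins reset. HSP90 takes over many of those clients at a late stage of folding, and kinases, mutant EGFR among them, are well-known clients. The small heat shock proteins hold aggregating proteins without ATP, the mitochondrial matrix has its own HSP70 and a chaperonin made of HSP60 and HSP10, and the ER has its own HSP70 (BiP) and HSP90 (GRP94). Cytosolic members are classic targets of heat shock factor 1 (HSF1), and ER members of the unfolded protein response.

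Before treatment the members took 2.185% and 2.277% of all counts in the PC9 libraries and 1.364% and 1.345% in the H1650 libraries. After 36 h with a drug their share was 1.045% to 1.139% in PC9 and 1.018% to 1.168% in H1650, below T0 of the same line in each treated library. HSP90AA1, the stress-inducible HSP90 alpha, alone made up 0.939% and 0.9908% of counts in PC9 T0 and 0.1064% and 0.1117% in H1650 T0. The cytosolic members together fell from 1.758% and 1.834% to between 0.7388% and 0.8419% in PC9, whereas the ER members took 0.2129% and 0.2183% at T0 and 0.1731% to 0.198% with a drug. HSP90AA1, counted within the cytosolic share, took 0.2718% to 0.3359% in the treated PC9 libraries, so a large part of that fall was this gene. In H1650 the cytosolic members took 1.007% and 0.971% at T0 and 0.6626% to 0.7845% with a drug. The ER members there took 0.2127% and 0.2219% at T0, 0.2008% and 0.2149% with erlotinib and 0.2525% and 0.2475% with osimertinib, above both T0 libraries.

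The lines used different leading chaperones at T0. Levels were set per kilobase of the deposited gene length (RPKM). They compare between genes only as far as that length fits the transcripts present, which was not checked. The order in PC9 was HSP90AA1 at 2005 ± 88.03 (SD, n = 2), HSP90AB1 at 966.7 ± 24.5, HSPA8 at 532.9 ± 26.57, HSPD1 at 314.9 ± 15.3, HSPA5 at 227.2 ± 5.567 and HSP90B1 at 148.1 ± 3.332. In H1650 the first was HSPB1, the small heat shock protein HSP27, at 1592 ± 252.6 RPKM, before HSP90AB1 at 601.3, HSPA8 at 285.9, HSP90AA1 at 218.1, HSP90B1 at 196.9 and HSPA5 at 194.3. The last 2 of these overlapped between their libraries, so their order in H1650 was not resolved. Between the lines, 25 of the 66 tested members were higher and 23 lower in H1650 than in PC9 at T0 (edgeR quasi-likelihood test, Benjamini-Hochberg adjusted p under 0.05 over 19108 genes, the rule behind each call given here), against 35.8% and 33.8% of all tested genes.

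**Figure D1:**
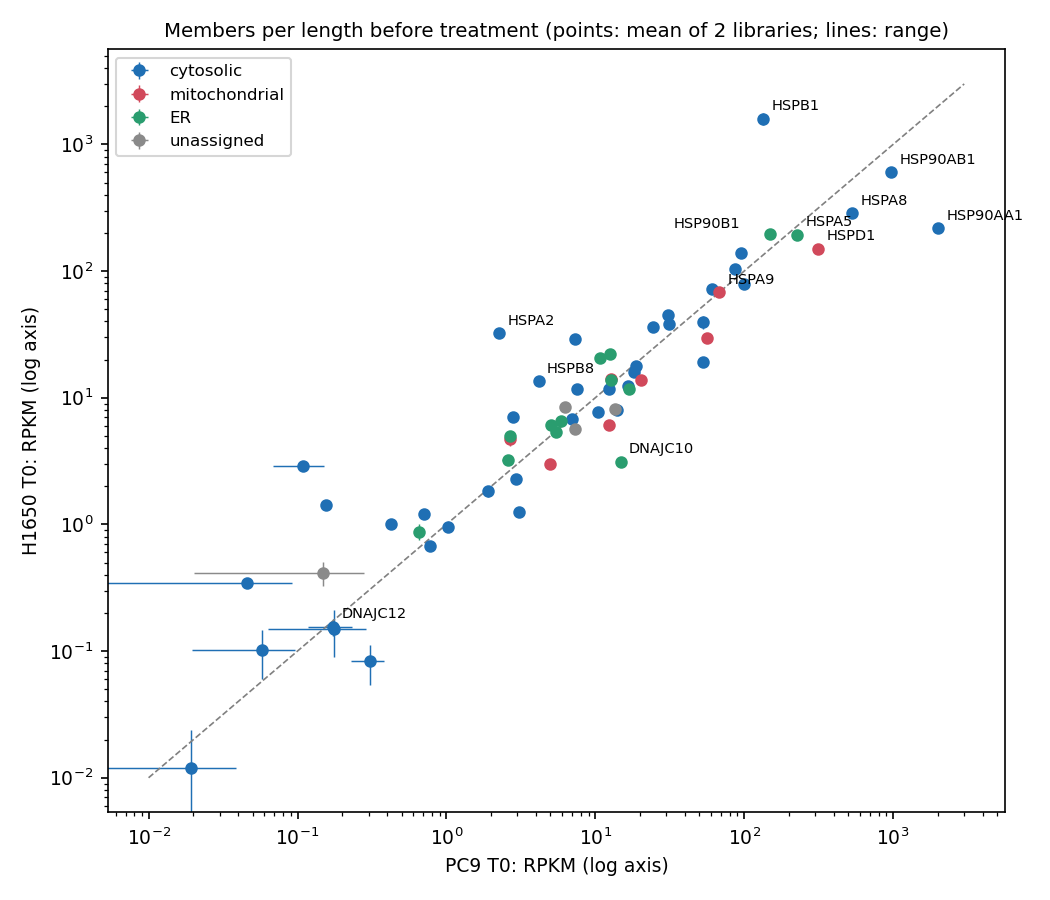
Level of each member per length at T0 in PC9 (x) and H1650 (y), in RPKM on log axes and coloured by location, for the 65 of 72 members above 0.01 RPKM in both lines, with points at the mean of 2 libraries, lines spanning both libraries and leaving the frame where 1 library was at 0, and a dashed line at equal levels. HSPB1 and HSPA2 lie above the dashed line and HSP90AA1 and DNAJC10 below it.

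Single members differed between the lines by far more than their libraries did. HSPA2, an HSP70 best known from testis, had 14.17 and 11.99 CPM in PC9 T0 against 196.2 and 178 CPM in H1650 T0 (log2 difference H1650 minus PC9 3.84 ± 0.0977 SE, adjusted p = 6.6e-23). HSPB1 had 214.7 and 188 CPM against 2665 and 2127 CPM (3.57 ± 0.111, adjusted p = 5.12e-21). In the other direction HSP90AA1 stood at 9905 and 10540 CPM in PC9 and at 1088 and 1135 CPM in H1650 (-3.20 ± 0.083, adjusted p = 9.76e-23). DNAJC10, the ER disulfide reductase ERdj5, had 318.2 and 328.2 CPM in PC9 against 69.17 and 67.33 CPM in H1650 (-2.24 ± 0.0764, adjusted p = 4.33e-20). DNAJB2, a J protein named for its neuronal form, was also higher in H1650, by 1.98 ± 0.0789 on the log2 scale (adjusted p = 1.53e-18). None of these pairs of groups overlapped. Counts were not stated to use strand, and the exons of HSP90AA1 overlap those of WDR20 on the opposite strand, so reads of that pair cannot be told apart.

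With 36 h of erlotinib, 36 of the 66 tested members were lower and 11 higher in PC9, where 29.1% and 32.7% of all tested genes were called, and 29 were lower and 4 higher in H1650, where 18.5% and 18.0% were. With osimertinib 31 were lower and 13 higher in PC9, against 28.7% and 32.7% of all genes, and 26 were lower and 3 higher in H1650, against 17.9% and 17.8%. A call is easier to reach at a high level, and 52 of the 66 members, against 10294 of the 19108 tested genes, had a mean of at least 10 CPM. Among these 52, 65.4% and 57.7% were lower with erlotinib and osimertinib in PC9 and 51.9% and 48.1% in H1650, beside 40.9%, 40.9%, 29% and 27.9% of the 10294 genes at that level.

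Changes were then described by the location of the members. In PC9 the median log2 fold change of the 40 cytosolic members was -0.31 with erlotinib and -0.41 with osimertinib, that of the 8 mitochondrial members -0.61 and -0.97, and that of the 13 ER members -0.20 and -0.06, while the median of all tested genes was 0.07 and 0.06. Over the 29 cytosolic members with a mean of at least 10 CPM the median in PC9 was -0.48 with erlotinib and -0.45 with osimertinib, beside -0.05 over all genes at that level with either drug. In H1650 the cytosolic median was -0.38 with erlotinib and -0.22 with osimertinib, the mitochondrial -0.02 and -0.12 and the ER -0.02 and 0.12, beside 0.01 and 0.00 over all tested genes. By counts, 22 of 40 cytosolic, 6 of 8 mitochondrial and 7 of 13 ER members were lower with erlotinib in PC9, and 19, 6 and 5 with osimertinib. The same counts were 20, 3 and 5 with erlotinib in H1650 and 20, 2 and 3 with osimertinib. Over all tested genes 29.1% and 28.7% were lower with erlotinib and osimertinib in PC9, and 18.5% and 17.9% in H1650. The higher shares given above for genes with a mean of at least 10 CPM also stand beside these counts. Both drugs share their T0 libraries, so the paired values of a line are not independent, and no test was run over members, which are not replicates. The order of the locations was not the same in PC9 as in H1650, and no difference between locations was tested. Single libraries decided some of the small medians. Without PC9 T0 replicate 1 the ER median with osimertinib in PC9 was -0.12, without PC9 T0 replicate 2 it was -0.04, without PC9 osimertinib replicate 1 it was -0.02, and without PC9 osimertinib replicate 2 it was -0.13. In H1650 the mitochondrial median with osimertinib was -0.07 without H1650 T0 replicate 2 and -0.06 without H1650 osimertinib replicate 2. Without H1650 erlotinib replicate 2 the ER median with erlotinib was -0.18, without H1650 T0 replicate 2 the mitochondrial median with erlotinib was -0.12 and the ER median with osimertinib 0.05, and without H1650 osimertinib replicate 1 that ER median was -0.01.

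**Figure D2:**
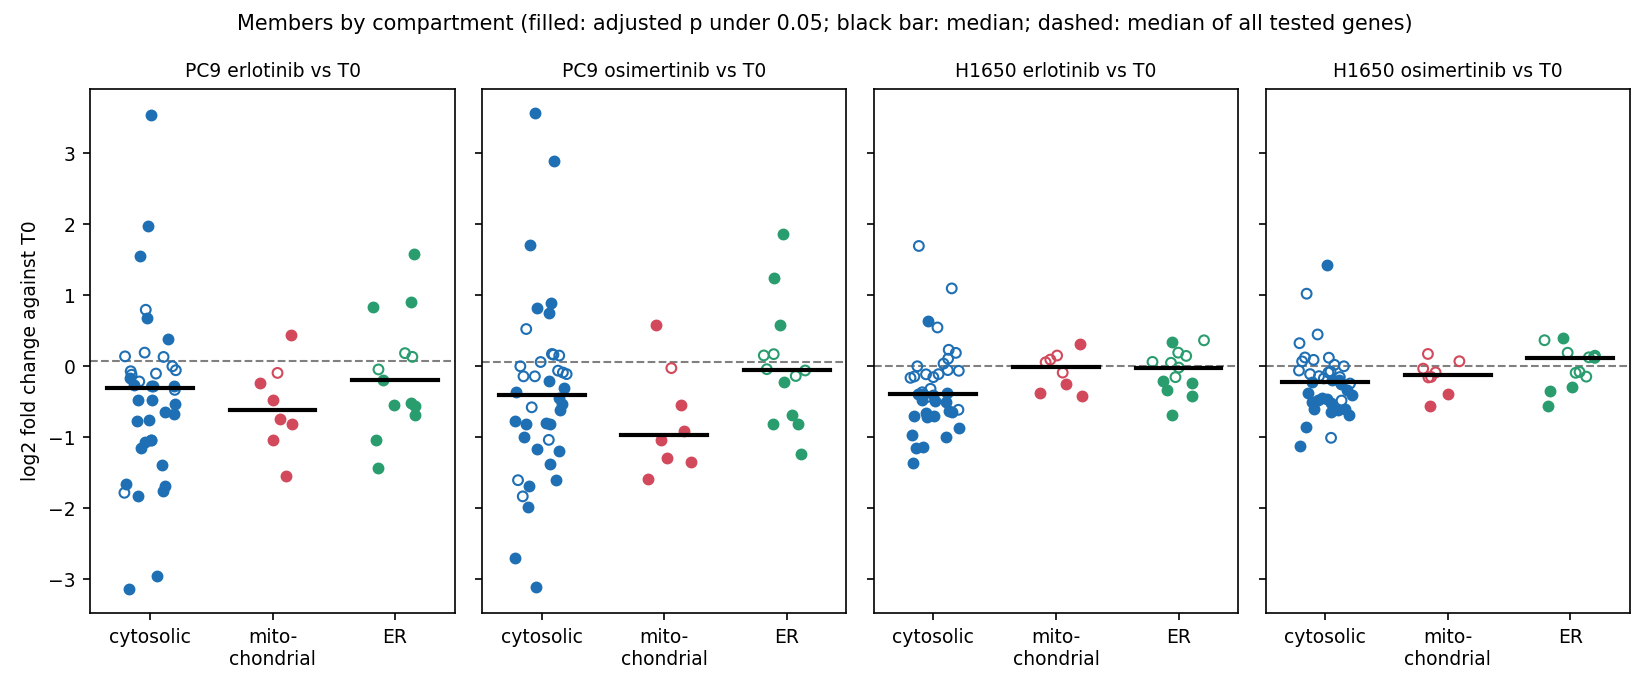
Log2 fold change against T0 (y) of the 61 tested members with an assigned location, by location (x), 1 panel for each line and drug, with filled points past an adjusted p of 0.05, open points not, black bars at the median over members and a dashed line at the median of all 19108 tested genes. The mitochondrial median lies at -0.61 and -0.97 in PC9 and at -0.02 and -0.12 in H1650.

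Calls were also counted by protein family. In PC9 all 3 HSP90, all 3 HSP110 and both chaperonin genes were lower with each drug, as were 9 of 12 other HSP70 genes with erlotinib and 6 with osimertinib and 3 of 4 DNAJA genes with each. None of the genes of these 5 families was higher in PC9. In H1650 with erlotinib all 3 HSP90, all 3 HSP110 and both chaperonin genes were lower again, while 4 HSP70 genes were lower and 2 higher and 1 DNAJA gene was lower. With osimertinib in H1650, HSP90 had 2 genes lower and 1 higher, HSP110 had 2 lower, the chaperonins 1 lower, HSP70 4 lower and 1 higher, and DNAJA 3 lower. Of the 10 tested DNAJB genes 4 were lower and 3 higher in PC9 with erlotinib, and of the 26 DNAJC genes 11 were lower and 6 higher, beside 29.1% lower and 32.7% higher over all tested genes. In H1650 6 DNAJB genes were lower and 1 higher with erlotinib, and 5 lower with osimertinib. DNAJC had 8 lower and 1 higher in H1650 with erlotinib, and 6 lower and 1 higher with osimertinib. Over all tested genes in H1650, 18.5% were lower and 18.0% higher with erlotinib, and 17.9% and 17.8% with osimertinib. In PC9 with osimertinib these shares were 28.7% and 32.7%, and they stand beside the counts of each family. Of the 6 tested genes with an HSPB symbol, 2 were higher and 1 lower in PC9 with erlotinib and 3 higher and 1 lower with osimertinib. In H1650 2 and 3 of them were lower. HSPB11 (IFT25), counted here by its symbol, is a protein of intraflagellar transport and the others are small heat shock proteins. HSPB11 was the 1 lower in PC9 with each drug and was among the 3 lower with osimertinib in H1650. The families hold few genes each, and no difference between families was tested.

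Called lower in all 4 comparisons with T0 were 13 of the 66 members, and these were HSP90AA1, HSP90AB1, HSPH1, HSPA8, HSPA4L, DNAJA1, DNAJB1, DNAJC2, DNAJC8, DNAJC9 and DNAJC21 of the cytosol and nucleus, HSPD1 of the mitochondrion and DNAJB11 of the ER. DNAJC4, a J protein of uncertain location, was the only member called higher in all 4. Its level rose from 20.97 and 20.34 CPM in PC9 T0 to 53.16 and 44.47 with erlotinib and 52.49 and 49.84 with osimertinib, and from 16.23 and 15.55 CPM in H1650 T0 to 28.48 and 24.49 and to 31.03 and 24.14. Its exons overlap those of NUDT22 on the same strand. Another 12 tested members were called in none of the 4 comparisons, among them DNAJC15 of the mitochondrial import motor and DNAJB12, DNAJB14 and DNAJC14 of the ER membrane. The shares of all tested genes called in all 4 comparisons, or in none, were not counted, so whether these counts are unusual is not known.

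HSP90AA1, HSP90AB1 and HSPA8, of the cytosolic HSP90 and HSP70 machine, were lower in both lines with either drug. HSP90AA1 had 2688 and 3083 CPM with erlotinib and 3217 and 3493 CPM with osimertinib in PC9, against 9905 and 10540 at T0, a log2 fold change of -1.82 ± 0.0786 (adjusted p = 1.48e-17) and -1.61 ± 0.0781 (adjusted p = 1.97e-16). In H1650 it had 635.8 and 727.8 CPM with erlotinib and 724.7 and 734.2 CPM with osimertinib, against 1088 and 1135 at T0 (-0.71 ± 0.0772 and -0.61 ± 0.077). All treated libraries lay below all T0 libraries of their line, and the treated PC9 libraries still lay above the untreated H1650 libraries. HSP90AB1, the constitutive HSP90 beta, fell by a similar step in each group, from 2829 and 2932 CPM in PC9 to between 1579 and 1785 CPM and from 1768 and 1816 CPM in H1650 to between 1033 and 1172 CPM, with log2 fold changes in PC9 of -0.76 for erlotinib and -0.81 for osimertinib, and in H1650 of -0.71 for erlotinib and -0.61 for osimertinib.

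HSPA8, the constitutive HSC70, had 2493 and 2675 CPM in PC9 T0, 767.4 and 836.4 with erlotinib and 773.2 and 841.3 with osimertinib (-1.69 ± 0.085 and -1.68 ± 0.085). In H1650 its level was 1347 and 1425 CPM at T0, 619 and 771 with erlotinib and 613.9 and 657.6 with osimertinib (-1.0 ± 0.0838 and -1.12 ± 0.084). The stress-inducible pair HSPA1A and HSPA1B moved less. HSPA1A had 244.1 and 231.4 CPM in PC9 T0 and fell to 173.5 and 168.5 with erlotinib (-0.48 ± 0.0781, adjusted p = 5.94e-06), while its 207.9 and 223.2 CPM with osimertinib gave -0.14 ± 0.0779, which was not called (adjusted p = 0.118, but 0.0179 when each line was fitted alone). In H1650 it went from 203.3 and 175 CPM to 134.2 and 134.8 with erlotinib (-0.49 ± 0.0789) and to 171.8 and 153.4 with osimertinib (-0.22 ± 0.0783, adjusted p = 0.0306). That last call was lost without H1650 T0 replicate 1 (-0.11, adjusted p = 0.461) or H1650 osimertinib replicate 2 (-0.14, adjusted p = 0.334). HSPA1B was lower in PC9 with erlotinib (-0.47 ± 0.0959) and was not called in H1650 with either drug (-0.14 and 0.07), though without H1650 T0 replicate 2 the erlotinib value was -0.30 and was called (adjusted p = 0.0275). However, the coding sequences of these neighbours are nearly identical, so how reads divided between them is uncertain.

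HSPA6, an HSP70 that cells make almost only under heat, was low at T0, with 35 and 38 reads in PC9 and 34 and 41 in H1650. In the treated PC9 libraries it came near its detection limit, with 8 and 3 reads with erlotinib and 10 and 1 with osimertinib. It had 1.764 and 1.876 CPM in PC9 T0, 0.3583 and 0.1171 CPM with erlotinib and 0.4624 and 0.05606 CPM with osimertinib, and it was called lower with both (log2 fold change -2.95 ± 0.564 and -2.70 ± 0.568, the latter -4.88 without PC9 osimertinib replicate 1). In H1650 it went from 1.586 and 1.582 CPM to 0.5676 and 0.6518 with erlotinib (-1.37 ± 0.495, adjusted p = 0.0312), a call lost when any of these 4 libraries was left out, with adjusted p from 0.0778 to 0.141. Each treated library of either line held less of it than each T0 library.

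HSF1 binds inverted repeats of GAA. Of the promoters in the RefSeq table for build GRCh38.p14, which runs from 250 bases before to 50 bases after each gene's start, 63 of the 72 members had an entry, and 4 of the 63 (6.35%) held an exact run of 3 alternating repeats (GAA, TTC, GAA or TTC, GAA, TTC, each separated by 2 bases, on either strand), as did 133 of all 27305 promoters (0.487%). The 4 were HSPA8, HSPA6, DNAJA1 and DNAJB6, all cytosolic. The stretches that hold the match are shown for HSPA8, which has a match at each end and fell with both drugs in both lines, for HSPA6, and for DNAJB6, a suppressor of polyglutamine aggregation, with the matches in capitals and each read on its gene's strand, 5′ to 3′. They lie at chr11:123062169-123062376 on the minus strand, chr1:161524446-161524498 on the plus strand and chr7:157336853-157336905 on the plus strand.
HSPA8: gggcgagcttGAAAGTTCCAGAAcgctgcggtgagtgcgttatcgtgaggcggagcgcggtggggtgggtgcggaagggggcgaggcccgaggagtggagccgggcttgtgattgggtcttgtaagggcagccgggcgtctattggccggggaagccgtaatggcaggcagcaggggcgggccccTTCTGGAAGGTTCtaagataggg
HSPA6: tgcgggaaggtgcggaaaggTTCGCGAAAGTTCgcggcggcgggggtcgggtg
DNAJB6: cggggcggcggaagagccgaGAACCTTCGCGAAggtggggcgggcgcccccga
The match of DNAJA1 began 3 bases after its start. With a matching promoter, DNAJB6 fell by 0.28 with erlotinib in PC9 and by 0.38 in H1650 on the log2 scale, beside -1.69 for HSPA8 with erlotinib in PC9. With osimertinib DNAJB6 had -0.19 in H1650 (adjusted p = 0.0341, a call lost at the stricter 0.01). In PC9 with osimertinib it had -0.11 and was not called, but it was when each line was fitted alone (-0.17, adjusted p = 0.0409). HSP90AA1, HSPH1 and HSPD1 fell too, and no exact run was in their windows, which says only that these letters are not there.

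The nucleotide exchange factors of the HSP110 class were lower in PC9 with both drugs, 3 of 3. HSPH1 had 437.2 and 446.9 CPM in PC9 T0, 131.2 and 150.3 with erlotinib and 164.5 and 175.1 with osimertinib (-1.65 ± 0.0746, adjusted p = 4.25e-17, and -1.38 ± 0.0742, adjusted p = 1.89e-15). In H1650 it went from 163.5 and 158.5 CPM to 85.96 and 90.46 and to 89.21 and 88.64 (-0.87 ± 0.0757 and -0.86 ± 0.0755). HSPA4L had the largest fall of the 66 members in PC9 with each drug, from 34.08 and 35.69 CPM in PC9 T0 to 3.494 and 4.373 with erlotinib (-3.14 ± 0.145, adjusted p = 7.34e-17) and 4.162 and 3.868 with osimertinib (-3.11 ± 0.149, adjusted p = 1.45e-16). In H1650 the same gene went from 13.43 and 15.01 CPM to 8.359 and 9.823 (-0.64 ± 0.138) and to 10.36 and 10.24 (-0.47 ± 0.135, adjusted p = 0.00745, and 0.0935 without H1650 T0 replicate 2). HSPA4, the third of the class and named here after its values were seen, fell by 1.04 and 0.99 on the log2 scale in PC9 and by 0.41 with erlotinib in H1650, and had -0.15 with osimertinib in H1650 (adjusted p = 0.0966).

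The J proteins that start the cytosolic cycle were lower by smaller steps. DNAJA1 went from 245.8 and 262 CPM in PC9 T0 to 114.4 and 132.7 with erlotinib (-1.04 ± 0.078) and 140.7 and 157 with osimertinib (-0.77 ± 0.0777), and from 368.7 and 368.5 CPM in H1650 T0 to 250.9 and 266.9 (-0.51 ± 0.0761) and 296 and 291.7 (-0.33 ± 0.0759). DNAJB1, the stress-inducible HSP40, changed alike in the lines with erlotinib, by -0.68 ± 0.0746 in PC9 and -0.66 ± 0.0743 in H1650, and by -0.61 ± 0.0748 and -0.40 ± 0.0739 with osimertinib. DNAJC9, which chaperones histones, fell from 57.93 and 58.84 CPM in PC9 to 17.69 and 17.02 with erlotinib (-1.75 ± 0.105) and 12.9 and 16.93 with osimertinib (-1.98 ± 0.109), and from 52.01 and 50.7 CPM in H1650 to 36.79 and 41.81 (-0.38 ± 0.0991, adjusted p = 0.00282) and 31.93 and 33.76 (-0.64 ± 0.0999). Its erlotinib call in H1650 was lost without H1650 erlotinib replicate 1 (-0.29, adjusted p = 0.0738), and its exons overlap those of MRPS16 on the same strand.

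HSPB8, DNAJB2 and DNAJB4 rose in PC9 and fell in H1650 with both drugs. HSPB8, the small heat shock protein that works with BAG3 to send misfolded proteins to autophagy, had 10.18 and 11.2 CPM in PC9 T0, 43.4 and 40.8 with erlotinib (1.98 ± 0.106, adjusted p = 2.08e-15) and 76.58 and 82.19 with osimertinib (2.89 ± 0.105, adjusted p = 2.93e-19). In H1650 it fell from 35.21 and 33.92 CPM to 20.54 and 21.37 (-0.72 ± 0.0988) and 23.1 and 19.95 (-0.68 ± 0.098). The PC9 groups rose in order from T0 to erlotinib to osimertinib without overlap, and the treated H1650 groups lay below T0. The change differed between the lines by -2.70 ± 0.145 with erlotinib and -3.57 ± 0.144 with osimertinib (H1650 minus PC9, edgeR interaction test, adjusted p = 8.35e-15 and 2.03e-17).

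DNAJB2, which delivers ubiquitylated clients to the proteasome, had 40.89 and 44.97 CPM in PC9 T0 and rose to 130.1 and 121.5 with erlotinib (1.55 ± 0.0787) and 137.3 and 142.2 with osimertinib (1.70 ± 0.079). In H1650 it fell from 171.7 and 168.2 CPM to 85.86 and 87.29 (-0.97 ± 0.0749) and 123.8 and 115.7 (-0.50 ± 0.0737), so that the lines, which differed at T0, were closer after treatment. The difference between the lines was -2.52 ± 0.109 and -2.21 ± 0.108 (adjusted p = 7.85e-17 and 1.23e-15). DNAJB4, named after its values were seen, showed the same signs at a smaller size, with 0.38 and 0.75 in PC9 and -0.47 and -0.52 in H1650 on the log2 scale. BAG3, the partner of HSPB8, was called lower with erlotinib in PC9 (-0.42) and not called with osimertinib (0.03).

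HSPB1 answered the drugs differently. In PC9 it had 205.4 and 169.7 CPM with erlotinib, overlapping the 214.7 and 188 at T0 (-0.10 ± 0.102, adjusted p = 0.398), but 348.8 and 362.5 with osimertinib (0.82 ± 0.102, adjusted p = 6.42e-08). In H1650 it fell from 2665 and 2127 CPM to 1172 and 986.5 with erlotinib (-1.15 ± 0.101) and stood at 1975 and 1718 with osimertinib (-0.38 ± 0.0993, adjusted p = 0.00357). The osimertinib call in H1650 was lost without H1650 T0 replicate 1 (-0.20, adjusted p = 0.159) or H1650 osimertinib replicate 2 (-0.28, adjusted p = 0.0727), and with DESeq2 (0.0563). HSPA2 in H1650 rose from 196.2 and 178 CPM to 304.4 and 280.3 with erlotinib (0.64 ± 0.0786) and 530.2 and 474.6 with osimertinib (1.43 ± 0.0792, adjusted p = 6.56e-14), again without overlap. In PC9 it fell from 14.17 and 11.99 CPM to 8.823 and 9.331 with erlotinib (-0.52 ± 0.117) and had 14.29 and 15.25 with osimertinib (0.17 ± 0.112, adjusted p = 0.185).

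HSPB7, DNAJC28 and DNAJC27, which were also called higher in PC9 with both drugs, lay at low levels, and they too were picked after their values were seen. HSPB7, a small heat shock protein of muscle, had 3 and 0 reads in the PC9 T0 libraries, 19 and 26 with erlotinib and 25 and 13 with osimertinib, and between 0 and 3 reads in each H1650 library. DNAJC28 had 1 and 14 reads in PC9 T0, 34 and 45 with erlotinib and 45 and 30 with osimertinib, so its T0 libraries disagreed with each other, and without PC9 T0 replicate 1 its call with erlotinib was lost (adjusted p = 0.0568). DNAJC27, a J protein with a small GTPase domain, rose from 2.42 and 2.32 CPM to 4.031 and 3.553 with erlotinib (0.67 ± 0.232, adjusted p = 0.0136) and 3.977 and 4.877 with osimertinib (0.89 ± 0.233). Its erlotinib call was lost without PC9 erlotinib replicate 1 (adjusted p = 0.0797) or PC9 T0 replicate 2 (0.071) and with DESeq2 (0.0573).

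**Figure D3:**
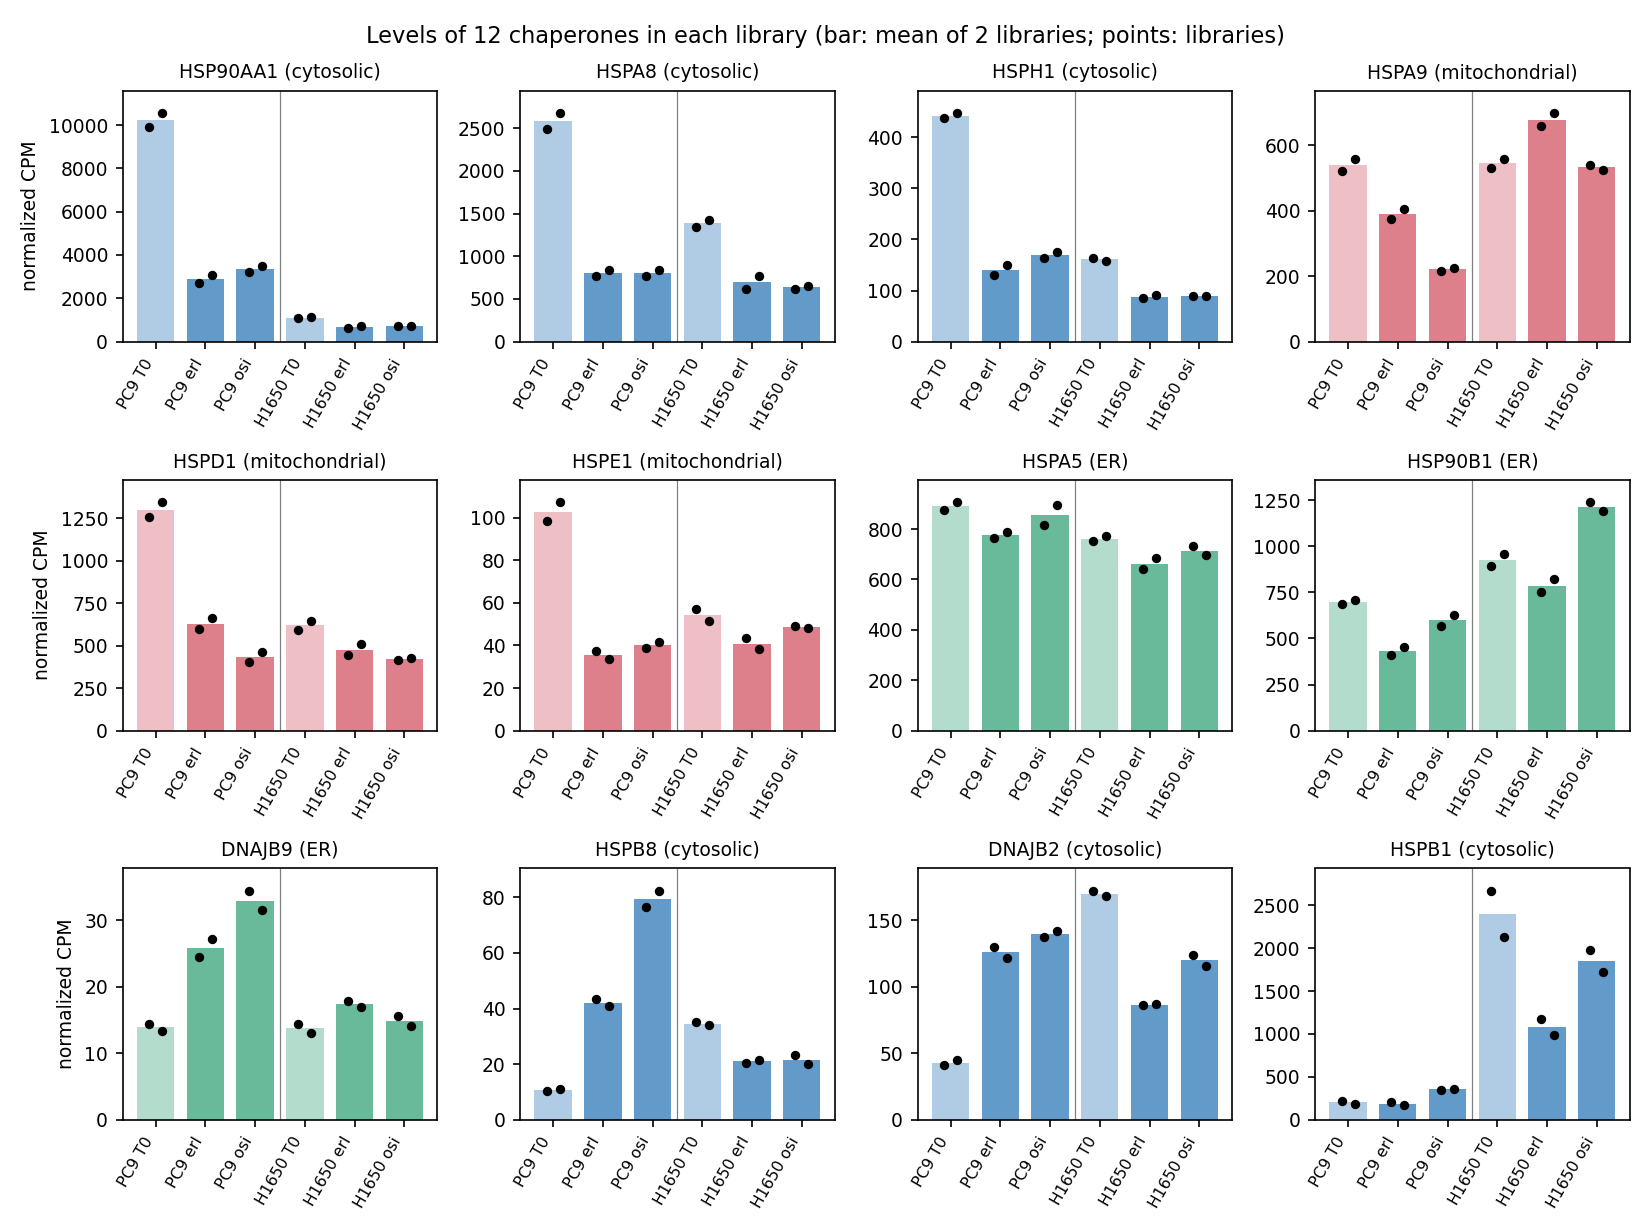
Normalized CPM (y, linear and starting at 0) of 12 members in the 6 groups (x, T0, erlotinib and osimertinib of each line), coloured by location, with bars at the mean of 2 libraries and points for the libraries. HSP90AA1, HSPA8 and HSPH1 lie lower in each treated group, and HSPB8 and DNAJB2 rise in PC9 and fall in H1650.

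Of the 8 mitochondrial members, 6 were lower in PC9 with each drug, beside 29.1% and 28.7% of all tested genes with erlotinib and osimertinib. By the interaction test 5 with erlotinib and 6 with osimertinib had a lower log2 fold change in PC9 than in H1650. Of all tested genes, 21.1% and 21.5% did. HSPD1 encodes HSP60, which folds proteins in the matrix in a chamber closed by HSP10, the product of HSPE1. HSPD1 had 1254 and 1343 CPM in PC9 T0, 595.2 and 665 with erlotinib (-1.04 ± 0.0807) and 403.5 and 463.8 with osimertinib (-1.58 ± 0.082, adjusted p = 8.15e-16). For H1650 the values were 590.2 and 647 CPM at T0, 446.5 and 507.2 with erlotinib (-0.38 ± 0.0804) and 413.5 and 428.1 with osimertinib (-0.56 ± 0.0805). HSPE1 had 98.46 and 107.2 CPM in PC9 T0, 37.18 and 33.57 with erlotinib (-1.54 ± 0.0895) and 38.84 and 41.82 with osimertinib (-1.35 ± 0.0896), and in H1650 57 and 51.51 CPM at T0, 43.29 and 38.13 with erlotinib (-0.41 ± 0.0903) and 49.31 and 48.42 with osimertinib (-0.15 ± 0.0889, adjusted p = 0.203). All treated PC9 libraries lay below T0 for both genes.

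HSPD1 and HSPE1 lie head to head on chromosome 2, and their RefSeq starts (GRCh38.p14, 197500274 on the minus and 197500379 on the plus strand) are 105 bases apart, so that the stretch between them lies upstream of both. It is shown because both genes fell together in PC9. It lies at chr2:197500275-197500378, is read on the strand of HSPE1, and has no capitals, since none of the motifs searched, CCAAT on either strand included, was found in it.
HSPE1: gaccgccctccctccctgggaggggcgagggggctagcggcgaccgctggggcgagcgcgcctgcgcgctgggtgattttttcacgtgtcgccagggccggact
Some annotated exons of the pair overlap on opposite strands, and exons of HSPE1 also overlap those of HSPE1-MOB4 on the same strand. The 17 pseudogene rows of HSPD1 and 26 of HSPE1 held at most 82 and 19 reads in a library. Part of the counts of the pair could therefore be shared with other genes, and how large a part is not known.

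HSPA9, or mortalin, the matrix HSP70 that also pulls proteins in through the inner membrane, was called in opposite directions in the lines with erlotinib. In PC9 it had 520.7 and 556.9 CPM at T0, 374.1 and 403.8 with erlotinib (-0.47 ± 0.0691, adjusted p = 1.09e-06) and 216.4 and 224 with osimertinib (-1.29 ± 0.0707, adjusted p = 2.81e-15). H1650 gave 531.1 and 557.4 CPM at T0, 658 and 696.9 with erlotinib (0.32 ± 0.0688, adjusted p = 0.000563) and 539.8 and 523.9 with osimertinib (-0.03 ± 0.0688, adjusted p = 0.764). The lines started alike (log2 difference at T0 0.01 ± 0.0688, adjusted p = 0.862) and the 3 PC9 groups did not overlap. The interaction was 0.79 ± 0.0975 with erlotinib and 1.26 ± 0.0983 with osimertinib (adjusted p = 1.54e-07 and 2e-11).

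DNAJA3, the J protein that serves HSPA9 in the matrix, fell from 145 and 141 CPM in PC9 T0 to 89.13 and 81.28 with erlotinib (-0.75 ± 0.0765) and 70.85 and 68.73 with osimertinib (-1.03 ± 0.0779). In H1650 it had 100.9 and 93.45 CPM at T0, 89.16 and 93.48 with erlotinib (-0.09 ± 0.0769, adjusted p = 0.398) and 76.85 and 71.71 with osimertinib (-0.39 ± 0.0774, adjusted p = 0.000216). The other mitochondrial J proteins are named here after their values were seen. DNAJC11, of the outer membrane, fell by 0.81 and 0.91 in PC9 on the log2 scale. DNAJC19 of the import motor had -0.23 with erlotinib (adjusted p = 0.0423) and -0.55 with osimertinib (adjusted p = 2.69e-05), the first call being lost without PC9 erlotinib replicate 1 (adjusted p = 0.196), PC9 erlotinib replicate 2 (0.0506) or PC9 T0 replicate 2 (0.43). DNAJC15, its close relative, was not called (-0.09 and -0.03). DNAJC30 was the only mitochondrial member called higher in PC9 (0.43 with erlotinib, adjusted p = 0.0431, and 0.58 with osimertinib, adjusted p = 0.0086). Its erlotinib call was lost when any of the 4 PC9 libraries compared was left out, with adjusted p from 0.0562 to 0.143.

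Within the ER, 8 members lie in the lumen or turn their J domain towards it. Of these, 7 were lower and 1 higher with erlotinib in PC9 and 5 lower and 1 higher with osimertinib, and in H1650 5 and 3 were lower and 1 was higher, beside the shares of all tested genes given above. Of the 5 other J proteins of the ER membrane, DNAJC16 and DNAJC18 were called higher in PC9 with both drugs and DNAJB12, DNAJB14 and DNAJC14 were called in none of the 4 comparisons. DNAJC16 and DNAJC18 are named after their values were seen. DNAJC18 rose from 4.336 and 4.196 CPM in PC9 T0 to 13.3 and 12.26 with erlotinib (1.58 ± 0.175) and 15.86 and 15.3 with osimertinib (1.87 ± 0.175), and DNAJC16 by 0.83 ± 0.1 and 0.59 ± 0.102. In H1650 the changes of DNAJC18 were 0.37 ± 0.176 and 0.37 ± 0.175 and were not called (adjusted p = 0.11 and 0.107). Without H1650 T0 replicate 1 they were 0.58 and 0.59 and were called (adjusted p = 0.036 and 0.034), as was the erlotinib change, at 0.55, without H1650 erlotinib replicate 1 (adjusted p = 0.0401).

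HSPA5, or BiP, the master chaperone of the ER and the classic readout of the unfolded protein response, hardly moved. It had 875.2 and 906.1 CPM in PC9 T0, 763.6 and 790.3 with erlotinib (-0.20 ± 0.0684, adjusted p = 0.0142) and 815 and 895 with osimertinib (-0.06 ± 0.0684, adjusted p = 0.473). In H1650 its values were 753.1 and 771 CPM at T0, 641.2 and 683.8 with erlotinib (-0.20 ± 0.0685, adjusted p = 0.0214) and 731.7 and 698 with osimertinib (-0.09 ± 0.0684, adjusted p = 0.321). Neither erlotinib call held up when single libraries were left out. In PC9 the adjusted p was 0.0923 without PC9 erlotinib replicate 1 and 0.102 without PC9 T0 replicate 2, and 0.127 with upper quartile normalization, and in H1650 it was 0.206 without H1650 erlotinib replicate 1, 0.0575 without H1650 T0 replicate 1 and 0.114 without H1650 T0 replicate 2.

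HSP90B1, or GRP94, the HSP90 of the ER that matures receptors and integrins, moved with the drug and the line. In PC9 it had 684.4 and 706.5 CPM at T0, 411.6 and 454.8 with erlotinib (-0.68 ± 0.0738, adjusted p = 4.75e-09) and 570 and 628.8 with osimertinib (-0.21 ± 0.0734, adjusted p = 0.0129). In H1650 it had 892 and 957.1 CPM at T0, 749.5 and 821.8 with erlotinib (-0.23 ± 0.0732, adjusted p = 0.0124) and 1238 and 1192 with osimertinib (0.39 ± 0.0731, adjusted p = 9.08e-05), where both libraries lay above T0. The calls of the 2 smaller falls depended on which libraries were kept. Leaving out a library leaves 1 in its group, so a call can be lost there with little change in size. The osimertinib call in PC9 was lost without PC9 osimertinib replicate 1 (-0.15, adjusted p = 0.148) or PC9 T0 replicate 2 (-0.19, adjusted p = 0.0873) and with upper quartile normalization (0.0644), and the erlotinib call in H1650 without H1650 erlotinib replicate 1 (-0.17, adjusted p = 0.183) or H1650 T0 replicate 2 (-0.18, adjusted p = 0.133).

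Both of these ER chaperones have the ER stress element, CCAAT and CCACG separated by 9 bases on either strand, in their promoter windows, HSPA5 once and HSP90B1 at 2 places, while no other member with an entry did and 22 of all 27305 promoters (0.0806%) did. The stretches around the matches are shown on the gene's strand with the matches in capitals, from chr9:125241371-125241429 on the minus strand and chr12:103930206-103930349 on the plus strand (GRCh38.p14), since the pair share the element and differ in how they moved. In HSP90B1 the match nearer the start runs in the opposite direction.
HSPA5: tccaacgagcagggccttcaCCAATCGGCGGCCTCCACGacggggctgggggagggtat
HSP90B1: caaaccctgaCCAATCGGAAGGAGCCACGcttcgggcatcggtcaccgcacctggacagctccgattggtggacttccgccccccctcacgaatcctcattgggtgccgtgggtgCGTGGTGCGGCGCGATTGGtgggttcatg
A related core of the same response, TGACGTG on either strand, was found in 546 of all promoters (2%) and in those of HSP90AB1, DNAJC10 and DNAJC25 among the members.

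The J proteins of the lumen did not move as a block. DNAJB9 (ERdj4), which holds the stress sensor IRE1 in check and is itself induced by it, rose in PC9 from 14.37 and 13.38 CPM to 24.45 and 27.21 with erlotinib (0.90 ± 0.115, adjusted p = 1.07e-07) and 34.36 and 31.51 with osimertinib (1.25 ± 0.115, adjusted p = 1.9e-10). In H1650 its level was 14.41 and 13.04 CPM at T0, 17.85 and 16.99 with erlotinib (0.35 ± 0.118, adjusted p = 0.0222) and 15.66 and 14.12 with osimertinib (0.12 ± 0.119, adjusted p = 0.481). The call with erlotinib in H1650 was lost without H1650 T0 replicate 2 (adjusted p = 0.191) or H1650 erlotinib replicate 1 (0.123) or 2 (0.0546), and with DESeq2 (adjusted p = 0.0826). Its exons overlap those of PNPLA8 and THAP5 on the opposite strand.

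DNAJB11 (ERdj3), a partner of BiP that also leaves the cell with unfolded proteins, fell in PC9 from 95.48 and 97.39 CPM to 44.16 and 49.31 (-1.04 ± 0.0829) and 56.46 and 53.43 (-0.81 ± 0.0829), and in H1650 from 69.73 and 64.32 CPM to 48.24 and 52.42 (-0.41 ± 0.0835) and 53.46 and 56.08 (-0.29 ± 0.0828, adjusted p = 0.00667). The last call was lost without H1650 T0 replicate 1 (adjusted p = 0.103) or H1650 osimertinib replicate 1 (0.0806). DNAJC10 fell in PC9 from 318.2 and 328.2 CPM to 219.5 and 234.2 (-0.51 ± 0.0717) and 185.6 and 182.5 (-0.81 ± 0.0725), and in H1650, at a level several times lower, gave -0.02 ± 0.0769 and -0.08 ± 0.0769. DNAJC3 (P58IPK), which restrains the kinase PERK, fell with erlotinib in PC9 (-0.56 ± 0.114, adjusted p = 0.000109) and not detectably with osimertinib (-0.14 ± 0.113, adjusted p = 0.304). In H1650 it gave -0.33 ± 0.111 with erlotinib (adjusted p = 0.0202) and -0.35 ± 0.111 with osimertinib (adjusted p = 0.0133). Those H1650 calls were lost without H1650 T0 replicate 2 (adjusted p = 0.132 and 0.105), without H1650 erlotinib replicate 1 (-0.19, adjusted p = 0.33), and without H1650 osimertinib replicate 1 (0.056) or 2 (0.071). HSPA13, an HSP70-like ATPase of microsomes, fell in PC9 by 0.54 with erlotinib and 0.69 with osimertinib and in H1650 by 0.56 with osimertinib on the log2 scale.

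Whether a drug changed a member alike in both lines was tested by the interaction of drug and line. With erlotinib 21 members had a higher and 9 a lower log2 fold change in H1650 than in PC9, where 21.1% and 19.8% of all tested genes did, and with osimertinib 23 and 9, where 21.5% and 20.5% did. Of these, 20 were higher and 8 lower with both drugs, and the matching share of all tested genes was not counted. Of the 8 mitochondrial members, 5 were on the higher side with erlotinib and 6 with osimertinib, beside 11 higher and 4 lower of 40 cytosolic members with erlotinib and 13 and 5 with osimertinib, and 5 higher and 3 lower of 13 ER members with erlotinib and 4 and 3 with osimertinib. Because the same T0 libraries enter both interactions, the 2 sets of values are not independent.

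Of 24 members called lower in both lines with erlotinib, 20 had the smaller change in H1650, as did 16 of 17 with osimertinib. These counts hold members whose difference between the lines was not called, HSP90AB1 and DNAJB1 among them. The same was not counted over all tested genes. Of those genes, 18.5% were lower in H1650 against 29.1% in PC9 with erlotinib, and 17.9% against 28.7% with osimertinib. A smaller change in H1650 was therefore not shown to be particular to the members. HSP90AA1 differed between the lines by 1.12 ± 0.109 with erlotinib and 0.999 ± 0.108 with osimertinib (adjusted p = 1.7e-09 and 1.29e-08), HSPE1 by 1.13 ± 0.127 and 1.20 ± 0.126 (adjusted p = 2.7e-08 and 6.75e-09), and HSPA4L by 2.5 ± 0.203 and 2.65 ± 0.204 (adjusted p = 4.78e-11 and 1.49e-11). HSP90AB1 did not differ detectably, with 0.06 ± 0.102 (95% interval -0.144 to 0.254) and 0.20 ± 0.102 (-0.002 to 0.397) (adjusted p = 0.725 and 0.125), nor did DNAJB1 with erlotinib (0.01 ± 0.105, adjusted p = 0.971) or HSPA5 with either drug (0.00 and -0.03). Without the low-count filter the osimertinib difference of HSP90AB1 was called (0.27, adjusted p = 0.003).

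**Figure D4:**
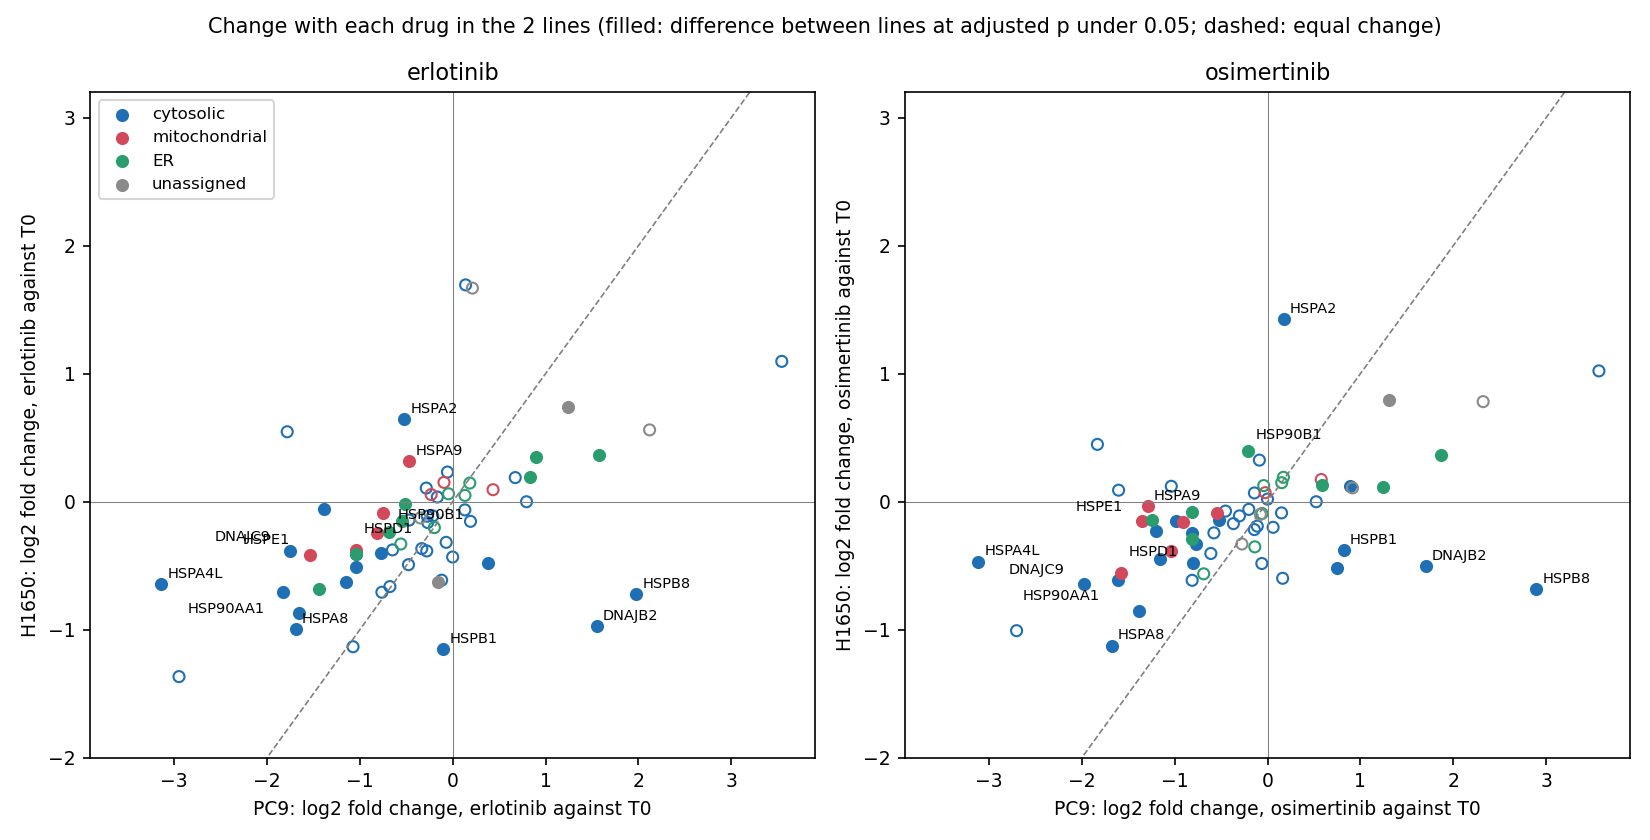
Log2 fold change of the 66 tested members in PC9 (x) and H1650 (y), with erlotinib on the left and osimertinib on the right, coloured by location, where filled points differed between the lines at an adjusted p of 0.05, open points did not, and the dashed line marks an equal change. HSPB8 and DNAJB2 lie at the lower right, and most filled points at the left of each panel lie above the dashed line, with the higher value in H1650.

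The drugs were also compared with each other within a line, at doses of 10 µM for erlotinib and 0.1 µM for osimertinib, so that compound and dose cannot be told apart. In PC9 11 members were higher and 7 lower with osimertinib than with erlotinib, where 10.1% and 6.41% of all tested genes were, and in H1650 9 were higher and 3 lower, where 5.02% and 3.73% were. Single libraries moved these counts. Without PC9 osimertinib replicate 2 there were 5 higher and without PC9 erlotinib replicate 1 there were 6, without PC9 osimertinib replicate 1 or PC9 erlotinib replicate 2 there were 4 lower, without either replicate 1 of treated H1650 there were 5 higher, and without H1650 erlotinib replicate 2 there was 1 lower. By location, 4 of 8 mitochondrial members in PC9 and 2 in H1650 were lower with osimertinib and 0 were higher. Of 40 cytosolic members, 8 were higher and 2 lower in PC9, and in H1650 6 were higher and 0 lower. Of 13 ER members, 3 were higher and 1 lower in PC9, and in H1650 2 were higher and 1 lower.

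HSPB1, HSPA2, HSP90B1 and HSPA1A were higher with osimertinib in both lines. The differences of HSPB1 were 0.92 ± 0.102 in PC9 and 0.77 ± 0.0999 in H1650, those of HSPA2 0.70 ± 0.115 and 0.78 ± 0.0779, and those of HSP90B1 0.47 ± 0.0737 and 0.63 ± 0.0733, each at an adjusted p of 5.88e-05 or less. HSPA1A differed by 0.33 ± 0.0782 (adjusted p = 0.00294) and 0.27 ± 0.0791 (adjusted p = 0.0267). Its calls were lost without PC9 osimertinib replicate 2 (adjusted p = 0.0536), H1650 erlotinib replicate 1 (0.12) or 2 (0.0954), or H1650 osimertinib replicate 1 (0.357). HSPB8 was higher with osimertinib in PC9 by 0.91 ± 0.0905 (adjusted p = 1.64e-08) and did not differ detectably in H1650 (0.04 ± 0.103).

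HSPA9 and DNAJA3 were lower with osimertinib in both lines. HSPA9 differed by -0.82 ± 0.0702 in PC9 (adjusted p = 9.4e-10) and -0.35 ± 0.0688 in H1650 (adjusted p = 0.00102), its osimertinib libraries lying below its erlotinib libraries in each line. DNAJA3 differed by -0.29 ± 0.0782 (adjusted p = 0.0105) and -0.30 ± 0.0779 (adjusted p = 0.0132), calls that were lost without PC9 erlotinib replicate 1 (0.145), PC9 osimertinib replicate 2 (0.0855), H1650 erlotinib replicate 2 (0.14) or H1650 osimertinib replicate 2 (0.173). HSPD1 was lower with osimertinib in PC9 (-0.54 ± 0.0806, adjusted p = 1.49e-05) and had -0.18 ± 0.0806 in H1650 (adjusted p = 0.184), whereas its partner HSPE1 gave 0.19 ± 0.0926 and 0.26 ± 0.0911, neither called (adjusted p = 0.183 and 0.0712). HSP90AA1 gave 0.22 in PC9, not called at an adjusted p of 0.0502 and called by DESeq2 at 0.0254.

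**Figure D5:**
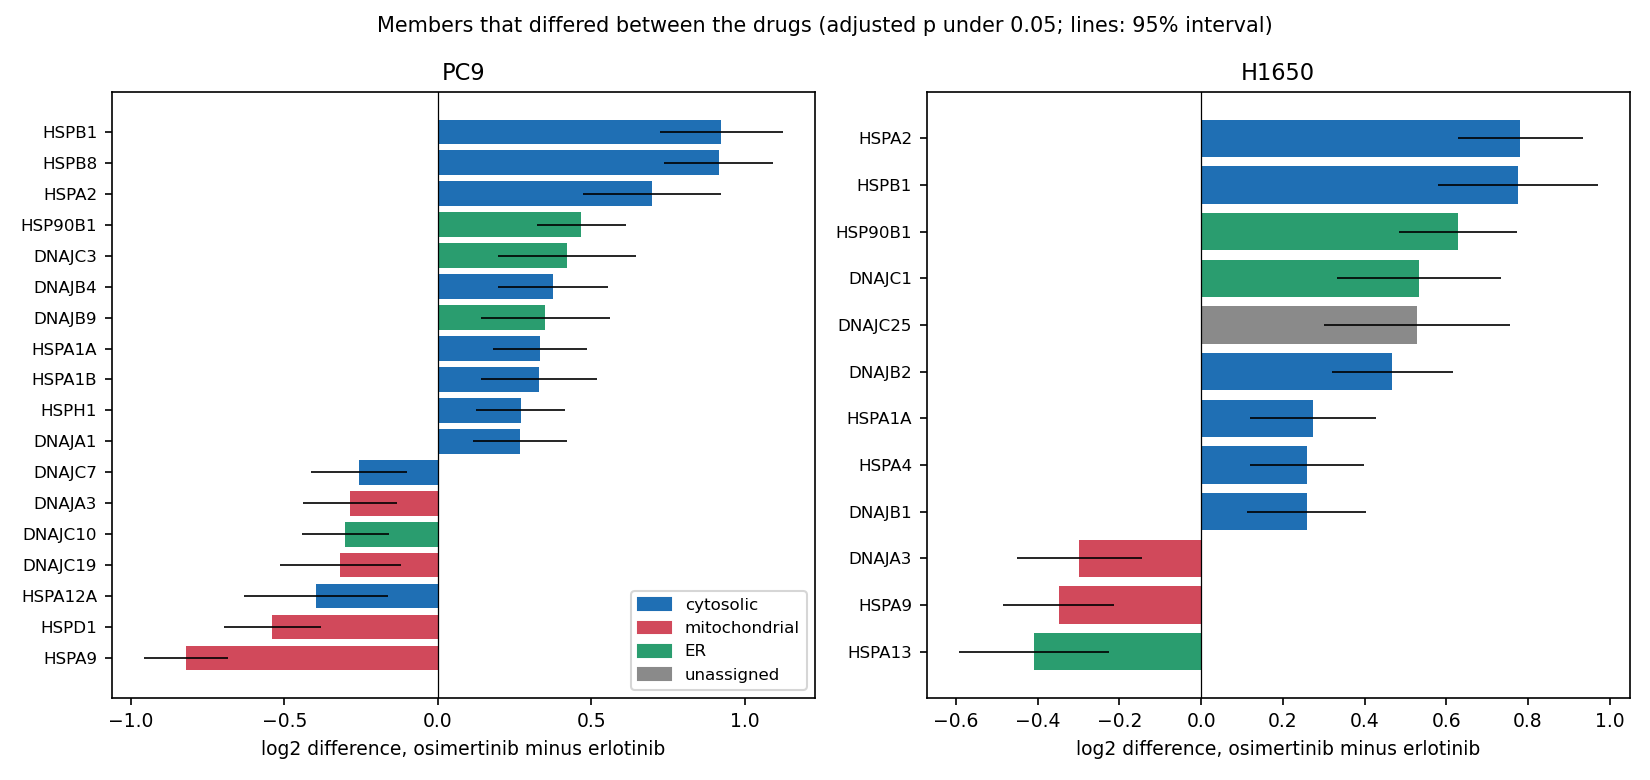
Log2 difference between osimertinib and erlotinib (x, osimertinib minus erlotinib) of the members called at an adjusted p of 0.05 in PC9 (left, 18 members) and H1650 (right, 12 members), coloured by location, with bars at the edgeR estimate and lines spanning its 95% interval. HSPB1 and HSPA2 are among the highest in both panels and HSPA9 among the lowest.

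Genes that work with the members, from 4 lists of 43 co-chaperones and other chaperones, gave the setting of these changes. HSF1 itself was called in none of the 4 comparisons (log2 fold changes -0.07 and -0.20 in PC9 and -0.03 and 0.04 in H1650). Of the 16 genes of the list of heat shock factors and cytosolic co-chaperones, 11 were lower and 2 higher with each drug in PC9, and 10 and 9 lower and 1 higher in H1650. Over all tested genes, 29.1% and 28.7% were lower and 32.7% higher in PC9 with erlotinib and osimertinib, and in H1650 18.5% and 17.9% were lower and 18.0% and 17.8% higher, which holds beside the counts of each of these lists. STIP1 (HOP), which joins HSP70 to HSP90, changed by -1.43 and -1.35 in PC9 and -0.64 and -0.39 in H1650, and AHSA1, which speeds the ATPase of HSP90, by -1.14 and -1.07 and by -0.33 and -0.20. FKBP5, an immunophilin that binds HSP90 and is a well-known target of steroid receptors, changed by -3.68 and -3.93 in PC9 and -0.73 and -0.85 in H1650. BAG1, a nucleotide exchange factor of HSP70, was the one gene of that list called higher in all 4 comparisons (0.64, 1.27, 0.99 and 0.95).

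The TRiC chaperonin, the cytosolic chamber that folds actin and tubulin, was lower in each of its 8 subunits in all 4 comparisons. Its median log2 fold change in PC9 was -1.34 with erlotinib and -1.25 with osimertinib, while in H1650 it was -0.66 and then -0.54, and all 8 subunits differed between the lines with both drugs. On the mitochondrial list, 4 of 7 genes were lower and 1 higher with erlotinib and 6 lower and 1 higher with osimertinib in PC9, while in H1650 3 were lower and 2 higher with erlotinib and 4 lower with osimertinib. GRPEL1, the exchange factor of HSPA9, changed by -0.99 and -1.22 in PC9 and -0.39 and -0.35 in H1650, and TRAP1, the mitochondrial HSP90, by -0.95 and -1.34 and by -0.47 and -0.48. On the ER list, 9 of 12 were lower and 1 higher with erlotinib and 7 lower and 2 higher with osimertinib in PC9, but in H1650 6 were lower and 1 higher with erlotinib while 6 were higher and 3 lower with osimertinib. In H1650 CALR, the lectin chaperone calreticulin, was lower with erlotinib (-0.63) and higher with osimertinib (0.37), as HSP90B1 was. HERPUD1, of the machine that removes misfolded ER proteins, was the exception that was higher in all 4 (1.79 and 1.35 in PC9, 0.80 and 0.57 in H1650). The named co-chaperones were chosen after their values were seen.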

How the data were processed

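RNA was sequenced from PC9 and H1650 cells in 12 libraries, and the authors deposited 1 table of raw counts per gene, made with featureCounts in the DolphinNext pipeline. GRCh38 and DESeq2 are named in the submitters' processing notes, and the aligner, the annotation and whether strand was used are not given in the sources used here. Columns were mapped to samples by the sample titles.

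The deposited counts were tested with edgeR 4.0.16 (limma 3.58.1, R 4.3.3), with filterByExpr, TMM factors and 1 quasi-likelihood fit of 6 groups over all 12 libraries, which left 19108 of 60591 genes. Changes are log2 fold changes with standard errors, called at a Benjamini-Hochberg adjusted p under 0.05 over all tested genes. The difference between the lines is the interaction, H1650 minus PC9. Levels are TMM-normalized CPM, and RPKM divides them by the gene length in kilobases. Totals of 17961765 to 26346187 counts set the precision. The scripts were tested on simulated data.

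Alternatives were DESeq2 1.42.0, RLE and upper quartile factors, no filter, a minimum of 10 counts in each library, a stricter call at 0.01, 1 fit per line, the replicate number as a block, and each library left out in turn.

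The members, their locations and the lists of co-chaperones were chosen with earlier results of these data known. Always named were 19 members of known role. Among members with a mean of at least 10 CPM, also named were the 3 highest and 3 lowest called changes against T0, interactions of 1 sign with both drugs and differences between the lines at T0, and the 2 highest and 2 lowest called differences between the drugs. A further 12 members, and HSPB7, DNAJC27 and DNAJC28, were named after their values were seen. Gene overlaps come from GENCODE and promoters from the RefSeq table for GRCh38.p14. Protein sequences were not used here.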

Additional observations from a re-analysis of the deposited data

Results flagged for a closer look

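A result was picked out for a closer look where the change with a drug differed between the lines by the interaction test of the edgeR fit (adjusted p under 0.05, H1650 minus PC9, on the log2 scale). Not every member that differed is given here, and DNAJC2 and DNAJC8 among others also differed with both drugs. No group held enough libraries to test single libraries as outliers. The same T0 libraries enter both drugs of a line, so the erlotinib and osimertinib values are not independent of each other.

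Among cytosolic members with the higher value in H1650, the difference with erlotinib and with osimertinib was 1.12 and 0.999 for HSP90AA1, 0.78 and 0.52 for HSPH1, 0.69 and 0.55 for HSPA8, 0.53 and 0.44 for DNAJA1, 2.5 and 2.65 for HSPA4L, 1.37 and 1.33 for DNAJC9, 1.17 and 1.25 for HSPA2, and 0.63 and 0.84 for HSPA4. For HSPA14, a ribosome-linked HSP70, it was 1.34 and 0.97. Most of these are members that fell in both lines, whereas HSPA2 rose in H1650.

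Among mitochondrial members, the difference was 0.79 and 1.26 for HSPA9, 0.67 and 1.03 for HSPD1, 1.13 and 1.20 for HSPE1, 0.66 and 0.65 for DNAJA3, 0.57 and 0.76 for DNAJC11, and 0.46 with osimertinib for DNAJC19. DNAJC30 lay on the lower side and was not called (-0.34 and -0.40), but without H1650 osimertinib replicate 1 its osimertinib difference was called (-0.73, adjusted p = 0.0206). The call of DNAJC19 was lost without PC9 T0 replicate 2 (0.35, adjusted p = 0.1), PC9 osimertinib replicate 1 (0.40, adjusted p = 0.063) or H1650 osimertinib replicate 1 (0.42, adjusted p = 0.0508).

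ER members lay on both sides. The difference was 0.45 and 0.61 for HSP90B1, 0.63 and 0.52 for DNAJB11, 0.49 and 0.73 for DNAJC10, 0.76 and 1.1 for DNAJC1 (ERdj1, whose J domain faces the lumen), and 0.39 with erlotinib for HSPA13, against -0.55 and -1.13 for DNAJB9, -0.64 and -0.46 for DNAJC16 and -1.22 and -1.50 for DNAJC18. The erlotinib call of HSPA13 was lost without PC9 T0 replicate 2 (adjusted p = 0.121), PC9 erlotinib replicate 1 (0.142) or H1650 erlotinib replicate 2 (0.119), that of DNAJB9 without H1650 T0 replicate 1 (0.053), and the osimertinib call of DNAJC16 without PC9 T0 replicate 1 (0.103) or H1650 T0 replicate 2 (0.0595).

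The cytosolic members with the lower value in H1650 were HSPB8 at -2.70 and -3.57, DNAJB2 at -2.52 and -2.21, HSPB1 at -1.05 and -1.20, DNAJB4 at -0.85 and -1.27 and, with osimertinib, DNAJC27 at -0.77. DNAJC4, of no assigned location, had -0.50 and -0.51. The DNAJC27 call (adjusted p = 0.0434) was lost without any of 7 libraries and with DESeq2 (0.12). The DNAJC4 calls were lost with erlotinib without H1650 T0 replicate 1 (0.0524), H1650 erlotinib replicate 2 (0.102), PC9 T0 replicate 2 (0.0536) or PC9 erlotinib replicate 1 (0.096), and with osimertinib without H1650 osimertinib replicate 2 (-0.33, adjusted p = 0.141) or PC9 osimertinib replicate 1 (0.05).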

How the results depend on the processing

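Of the counts of members higher or lower under settings other than leaving out a library, 135 stayed within 1.5 times the reported count and 3 did not, and of the medians by location 123 stayed and 3 moved by more than the spread. With osimertinib against erlotinib in PC9, an adjusted p under 0.01 left 6 members higher and 3 lower, and the replicate block put 5 rather than 3 members lower in H1650. With erlotinib in PC9 the cytosolic median was -0.2189 with upper quartile normalization and -0.4214 with a minimum of 10 counts in each library, and the mitochondrial median was -0.5178 with upper quartile normalization. For the named members 2705 values kept their direction and side of the threshold, 34 gained a call and 56 lost one, and no direction was reversed. Of the counts on the co-chaperone lists, 500 stayed and 52 moved. Upper quartile normalization moved the median of all genes by at most 0.0907.

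With each library left out in turn, 209 counts of members stayed and 7 moved, and 208 medians stayed and 8 moved, and 808 counts on the co-chaperone lists stayed and 56 moved. The cytosolic median with erlotinib in PC9 ranged from -0.3992 to -0.3104, the mitochondrial median with erlotinib in H1650 from -0.119 to -0.018, and the ER median in H1650 from -0.1783 to 0.0183 with erlotinib and from -0.014 to 0.1203 with osimertinib. For osimertinib against erlotinib, members higher in PC9 numbered 5 to 13 and lower 4 to 7, members higher in H1650 numbered 5 to 9 and lower 1 to 3, and the ER median in H1650 ranged from -0.1211 to 0.1472. Among the named members 112 calls were lost, 30 gained and 4286 values kept their call. The cause of these changes was not tested.

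Over all tested genes the deviations of libraries with the same number correlated at -0.0671 to 0.0947 over 15 pairs of groups, with 0 pairs over 0.1. Single members can still share a shift, which these correlations do not exclude. HSP90AA1 was higher in replicate 2 of each group, and DNAJC4 in replicate 1 of each group. With the replicate block 15 values of the named members gained a call and 354 kept theirs. The main fit held no such block, and what the replicate number stands for was not tested. Beside the lower count in H1650, the replicate block moved no count of members by over 1.5 times.

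With 2 libraries a group and no DMSO library of 36 h analysed here, calls of small changes can depend on single libraries and drug and time in culture cannot be told apart. Members under about 1 CPM were read from few reads, so their changes were not detectable at this depth or have wide errors.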
